A study of Mus musculus with 6 samples.

Results

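A set of 10 collagen genes was followed in primary mouse chondrocytes that carried or lacked periostin (Postn), a secreted protein that binds collagen fibrils. They were Col1a1 and Col1a2 (type I), Col3a1 (type III), Col5a1 and Col5a2 (type V), Col6a1, Col6a2 and Col6a3 (type VI), Col12a1 (type XII) and Col14a1 (type XIV). They were chosen by name, as collagens of fibrous tissue and of the matrix next to the cell, and were 10 of the 41388 genes in the files. All 10 were found and all 10 passed the filter on low counts. RNA-seq was available for 3 Postn-/- and 3 wt samples, each from male mice 21 days old, whose femoral head cartilage was digested and whose chondrocytes were then kept for 2 days in plates, in medium with serum, before RNA was taken. The Postn-/- mice were homozygous for the constitutive Postn tm1Jmol allele, which is absent from the wt mice, and both genotypes were on a B6/129 background (B6129SF2/J). Loss of Postn was therefore not restricted to cartilage or to the time in culture. The comparison asks which transcripts differ at baseline when Postn is missing. By the study's methods the replicates of a genotype came from different mice.

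Collagens are trimers of chains wound into a triple helix. Type I is the main collagen of bone, tendon and skin, type III accompanies it in pliable tissues, and type V starts the assembly of type I fibrils. Types XII and XIV attach to the surface of fibrils. Type VI forms beaded microfilaments and is the characteristic collagen of the pericellular matrix, the thin shell that surrounds each chondrocyte. Healthy cartilage is built mainly from type II collagen, the product of Col2a1, and chondrocytes kept as a monolayer are known to lose type II and to gain type I, which makes several of these genes common markers of dedifferentiation.

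On the genome build of the files, GRCm38, the 10 genes lie on 7 chromosomes. The type I genes are Col1a1 (ENSMUSG00000001506, chr11:94936224-94953042, plus strand) and Col1a2 (ENSMUSG00000029661, chr6:4504814-4541543, plus strand). Col3a1 (ENSMUSG00000026043, chr1:45311538-45349706, plus strand) and Col5a2 (ENSMUSG00000026042, chr1:45374321-45503282, minus strand) are neighbours that face each other with their 3′ ends 24.6 kb apart. Col5a1 lies elsewhere (ENSMUSG00000026837, chr2:27886425-28039514, plus strand). Col6a2 (ENSMUSG00000020241, chr10:76595762-76623630) and Col6a1 (ENSMUSG00000001119, chr10:76708792-76726168) are also neighbours, 85.2 kb apart and both on the minus strand, whereas Col6a3 stands alone (ENSMUSG00000048126, chr1:90765923-90843971, minus strand). The remaining genes are Col12a1 (ENSMUSG00000032332, chr9:79598991-79718831, minus strand) and Col14a1 (ENSMUSG00000022371, chr15:55307750-55520803, plus strand). All 10 are annotated as protein coding, and counts were taken over their exons.

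Because the type VI genes held the pair with the most similar profile over the samples, the sequence directly upstream of each of them is shown, with that of Col3a1 as a member whose samples did not separate by genotype. The sequences are from RefSeq on GRCm38.p6 and are written 5′ to 3′ on the strand of the gene, ending at the last base before the gene as the files place it. Capitals mark matches, on either strand, to 6 short motifs that do not overlap each other in these stretches. GGGCGG is the GC box, CCAAT is the box of that name, TATAAA is a form of the TATA box, TGACTCA is the AP-1 element, ACAAAG is the core bound by SOX factors, and CAGAC is the core bound by SMAD factors. The Col6a1 stretch is 126 bases because the RefSeq start lies 124 bp inside the gene. The stretches are Col6a1 at chr10:76726169-76726294 (minus strand), Col6a2 at chr10:76623631-76623880 (minus strand), Col6a3 at chr1:90843972-90844221 (minus strand) and Col3a1 at chr1:45311288-45311537 (plus strand).
Col6a1: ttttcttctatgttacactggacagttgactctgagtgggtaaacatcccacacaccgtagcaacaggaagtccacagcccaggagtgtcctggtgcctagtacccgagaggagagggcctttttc
Col6a2: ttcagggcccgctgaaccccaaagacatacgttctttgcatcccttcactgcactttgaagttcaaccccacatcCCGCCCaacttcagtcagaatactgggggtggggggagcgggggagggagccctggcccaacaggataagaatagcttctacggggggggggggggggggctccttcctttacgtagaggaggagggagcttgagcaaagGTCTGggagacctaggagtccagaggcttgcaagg
Col6a3: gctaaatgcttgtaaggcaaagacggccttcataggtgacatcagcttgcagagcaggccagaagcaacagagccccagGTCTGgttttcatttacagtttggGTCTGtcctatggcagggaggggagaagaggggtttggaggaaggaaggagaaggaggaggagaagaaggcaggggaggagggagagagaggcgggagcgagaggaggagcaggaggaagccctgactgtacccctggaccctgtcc
Col3a1: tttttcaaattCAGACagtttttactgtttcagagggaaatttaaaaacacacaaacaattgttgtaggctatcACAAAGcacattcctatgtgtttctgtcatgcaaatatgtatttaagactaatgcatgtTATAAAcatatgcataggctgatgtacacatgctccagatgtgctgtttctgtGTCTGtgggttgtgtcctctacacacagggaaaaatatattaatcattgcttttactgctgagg

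None of the 6 motifs was found in all 3 type VI stretches. The Col6a1 stretch held no match. The Col6a2 stretch held GGGCGG, on the other strand, and CAGAC. The Col6a3 stretch held CAGAC at 2 positions and nothing else. Only the Col3a1 stretch of these 4 held TATAAA, together with ACAAAG and CAGAC. Of the 32851 RefSeq promoter windows of 300 bases, 35.7% held GGGCGG, 13.6% held TATAAA, 18.7% held ACAAAG and 49.6% held CAGAC, so each of these matches is common. CCAAT stood in 37.4% and TGACTCA in 5.2% of the windows, and neither was found in the 4 stretches. The windows reach past these stretches into the genes, and that part of the Col6a1 window held TGACTCA. Col6a2 has a second RefSeq start 226 bp inside the gene, whose stretch is not shown. The window of that start held GGGCGG at 3 positions and no CAGAC. The GC content was 51.6% for Col6a1, 59.2% for Col6a2, 57.2% for Col6a3 and 35.2% for Col3a1.

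Total counts ran from 20587640 to 26572260 per sample, and 3 counts corresponded to 0.113 to 0.146 CPM, the count scaled to the total of the sample. Levels below are CPM after TMM normalization, which adjusts the totals for differences in RNA composition. The 10 collagens took between 0.413% and 0.758% of all counts. Postn itself, the targeted gene, was listed with 4.66, 4.27 and 5.67 CPM in Postn-/- replicates 1, 2 and 3 and with 10.1, 10.3 and 6.90 CPM in the wt replicates; it was lower in each Postn-/- sample but not at 0, and counts per gene do not separate a deleted exon from the rest. All 17 chondrocyte markers passed the filter on low counts, and no gene of any marker list was at 0 in all samples. wt replicate 1 stood apart on the first principal component of log2 CPM (47.7, against -17.4 to -0.02 for the other 5 samples; 31.9% of the variance), so the members lowest in it are also given without it, and calls of other genes that were lost without it are named beside them.

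No member passed the threshold over all genes. In edgeR's quasi-likelihood test of 14533 genes, 2 genes (0.0138%) had a Benjamini-Hochberg adjusted p of at most 0.05, and neither was among the 10 collagens. At an unadjusted p of at most 0.05, 3 of the 10 were higher in Postn-/- and 0 were lower, where 3.95% of all genes were higher, 2.35% lower and 6.3% called either way. The 3 were Col14a1, Col6a2 and Col6a1. The same 3 had all Postn-/- samples above all wt samples, a pattern found in 7.03% of all genes, and no member had the reverse, found in 6.57%. The median log2 fold change of the members was 0.29, against 0.0042 for all genes tested, and 7 of the 10 were positive. Medians above that of all genes were also found in marker lists of other cells: 0.25 for fibroblast genes (9 of 12 tested positive), 0.36 for endothelial (4 of 4), 0.47 for blood and macrophage (4 of 4), 0.51 for myofibroblast and smooth muscle (4 of 7) and 0.66 for synovial lining and superficial zone genes (4 of 4). Their part in the members' values was not tested. DESeq2's Wald test likewise gave 0 members at the adjusted threshold and 3 higher at the unadjusted one, where it called 3.3% of all genes higher. limma voomWithQualityWeights gave 0 and 5, with 5.42% of all genes called higher, and the same with surrogate variables gave 0 and 4, with 7.2%. Without wt replicate 2, 5 members were higher at the unadjusted threshold, with Col6a3 (edgeR's unadjusted p = 0.0207) and Col5a1 (unadjusted p = 0.00277) added, and 5.26% of all genes were called higher. The count was 2 without Postn-/- replicate 2 (3.92% of all genes), without wt replicate 1 (3.49%) or without wt replicate 3 (3.82%).

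**Figure D1:**
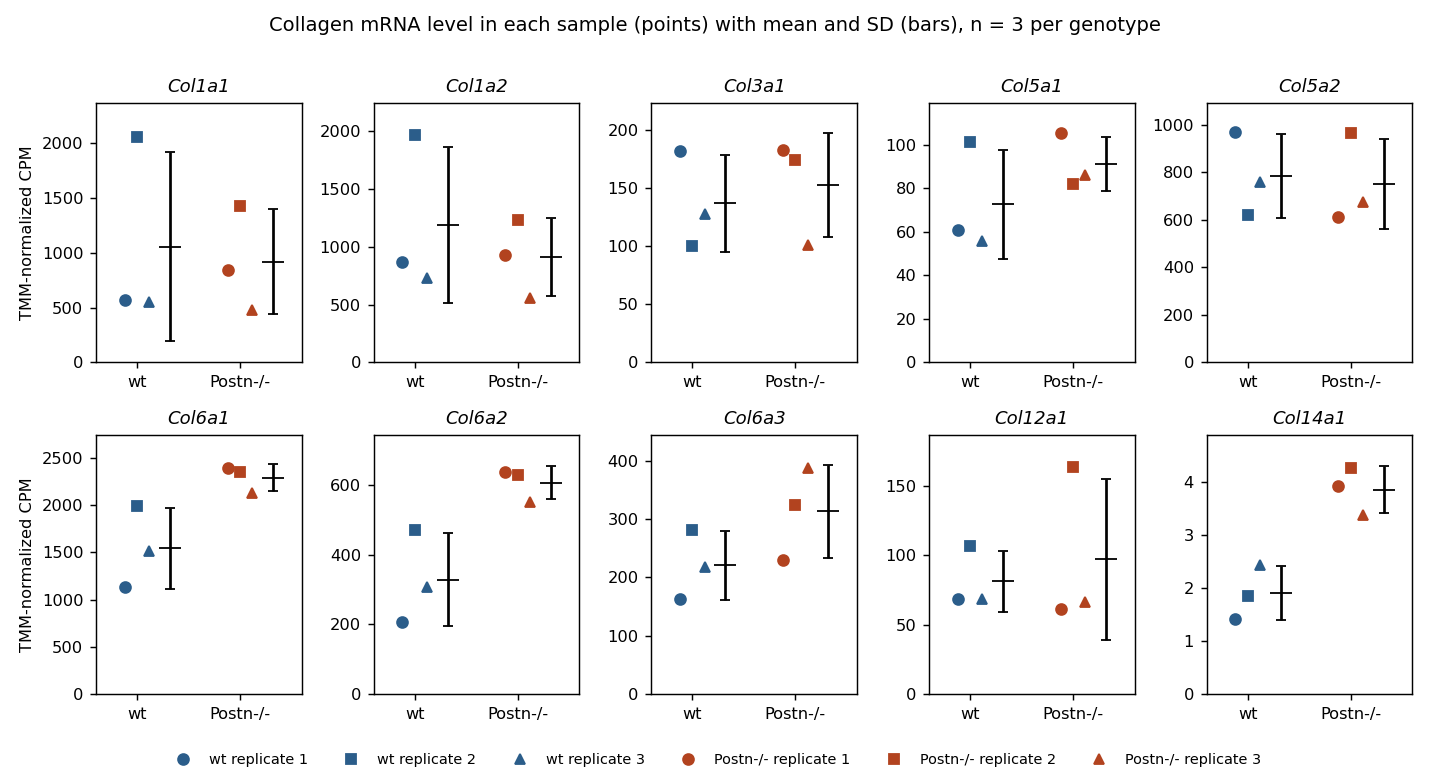
TMM-normalized CPM of the 10 collagen genes in each sample; blue symbols are wt and red symbols Postn-/- samples, the shape gives the replicate number, and bars are the mean and SD of 3 samples. The red points lie above all blue points for Col6a1, Col6a2 and Col14a1 (for Col14a1, at least 3.38 against at most 2.44 CPM), and the genotypes overlap for the other 7 genes.

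All 3 type VI genes had a higher mean in Postn-/- than in wt, and in 2 of them the samples of the genotypes did not overlap. Col6a2 encodes the α2 chain of type VI. It was measured at 639, 630.4 and 553 CPM in the Postn-/- samples compared with 207, 472 and 307 CPM in the wt samples. Every Postn-/- value exceeded every wt value, and the spread was wider in wt (SD 134) than in Postn-/- (SD 47.7). The mean was 607 ± 47.7 CPM (SD, n = 3) in Postn-/- and 328 ± 134 CPM in wt, a 1.85-fold difference (log2 fold change 0.89, SE 0.27, 95% interval 0.27 to 1.51). edgeR's unadjusted p was 0.0111 and its adjusted p 0.717. The unadjusted p stayed at or below 0.05 in all 16 alternative settings, with log2 fold changes from 0.64 to 1.24, and the lowest adjusted p in any of them was 0.0836, with surrogate variables.

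Col6a1, which encodes the α1 chain, was the most abundant member. Its values were 2394, 2349 and 2129.7 CPM in Postn-/- and 1128, 1988 and 1512 CPM in wt. The 3 Postn-/- samples lay close together and just above the highest wt sample, replicate 2. The means were 2291 ± 141 and 1543 ± 431 CPM (SD, n = 3), a 1.48-fold difference (log2 fold change 0.57, SE 0.21, 95% interval 0.09 to 1.05, edgeR's unadjusted p = 0.0261, adjusted p = 0.717). This unadjusted p passed 0.05 when Postn-/- replicate 1 (unadjusted p = 0.0688), Postn-/- replicate 2 (unadjusted p = 0.0540), wt replicate 1 (unadjusted p = 0.0586) or wt replicate 3 (unadjusted p = 0.0753) was left out, with log2 fold changes between 0.39 and 0.80 over all samples left out in turn.

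Col6a3, the gene of the long α3 chain, stood at 229, 324 and 387 CPM in Postn-/- compared with 162, 281 and 219 CPM in wt. The groups overlapped, since Postn-/- replicate 1 lay below wt replicate 2. Its log2 fold change of 0.51 (SE 0.24, 95% interval -0.06 to 1.07) missed the unadjusted threshold in edgeR's test (unadjusted p = 0.0715, adjusted p = 0.717). Its means were 313 ± 79.5 and 221 ± 59.3 CPM (SD, n = 3). The 3 log2 fold changes of type VI lay between 0.51 and 0.89, and their intervals overlapped one another.

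wt replicate 1, the sample that stood apart, was also the lowest of the 6 for Col6a1, Col6a2, Col6a3 and Col14a1. Without it the log2 fold change was 0.39 for Col6a1 (unadjusted p = 0.0586), 0.64 for Col6a2 (unadjusted p = 0.0137), 0.33 for Col6a3 (unadjusted p = 0.197) and 0.85 for Col14a1 (unadjusted p = 0.0133) in edgeR's test. The 4 differences kept their sign, and 2 of the 3 at the unadjusted threshold stayed there. The summed level of the 17 chondrocyte markers was also lowest in wt replicate 1, at 32141 CPM, and ran from 38372 to 51165 CPM in the other 5 samples. Col2a1 was the largest part of that sum, at 8271 CPM in wt replicate 1 and 9567 to 18081 CPM in the other 5. The markers did not all follow the sum. Acan and Comp were also lowest in wt replicate 1, but Matn1 and Cnmd were lowest in Postn-/- replicate 2, and Sox5 was highest in wt replicate 1. In these bulk samples fewer cells of a type and less RNA per cell cannot be told apart, and the part of either in these differences was not tested.

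**Figure D2:**
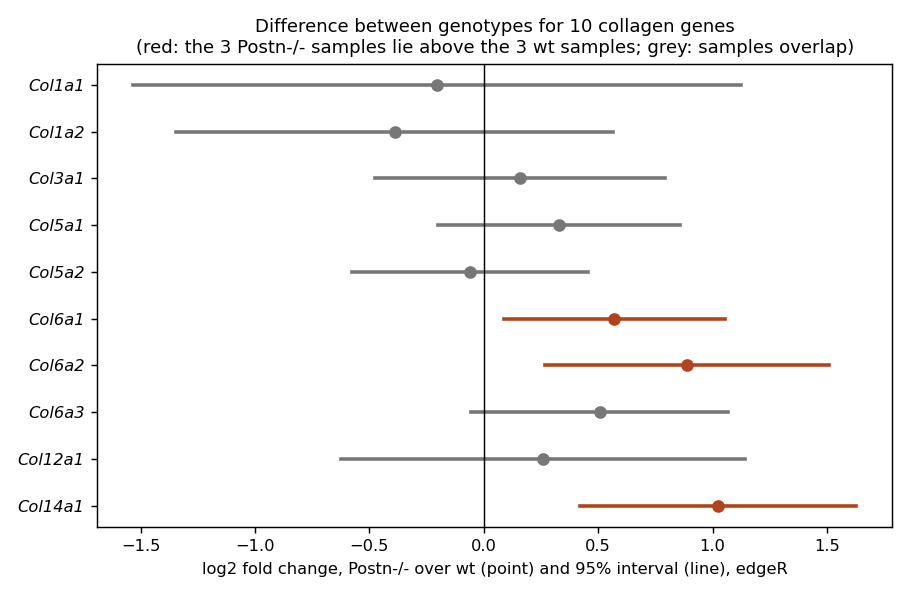
Log2 fold change of each collagen gene, Postn-/- over wt, in edgeR's test (points) with its 95% interval (lines), n = 3 per genotype; red marks genes whose Postn-/- samples all lie above the wt samples. The intervals of Col6a1 (0.09 to 1.05), Col6a2 (0.27 to 1.51) and Col14a1 (0.42 to 1.63) lie above 0, and that of Col1a1 is the widest (-1.53 to 1.12).

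The fibril-surface collagens had unlike patterns. Col14a1 had the largest log2 fold change among the members. Its levels were 3.94, 4.27 and 3.38 CPM in Postn-/- and 1.42, 1.85 and 2.44 CPM in wt, with no overlap. The counts behind them were small, at 98, 105 and 71 in Postn-/- and 37, 41 and 51 in wt. The means of 3.86 ± 0.448 and 1.91 ± 0.513 CPM (SD, n = 3) gave a log2 fold change of 1.02 (SE 0.26, 95% interval 0.42 to 1.63, 2.03-fold), with edgeR's unadjusted p = 0.00451 and adjusted p = 0.717. The unadjusted p stayed at or below 0.05 in all 16 alternative settings. Of the members, this gene rests on the fewest reads. It overlaps 1700040F17Rik on the opposite strand, which held 28 counts over the 6 samples against 403 for Col14a1, and whether counting used strand is not stated.

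Col12a1, the gene of type XII, stood at 61.1, 164 and 66.2 CPM in Postn-/- compared with 68.3, 107 and 68.7 CPM in wt. The highest sample in each genotype was replicate 2, and the other 4 samples lay between 61.1 and 68.7 CPM. Its log2 fold change of 0.26 (SE 0.38, 95% interval -0.62 to 1.14, edgeR's adjusted p = 0.871) turned to -0.35 without Postn-/- replicate 2. The opposite strand of Col12a1 holds 4930562D21Rik, with 160 counts over the 6 samples against 12509.

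The type I genes were the most variable members and were not separated by genotype. Col1a1, the gene of the α1 chain, stood at 845, 1430 and 482 CPM in Postn-/- compared with 566, 2059 and 549 CPM in wt. Replicate 2 was the highest in both genotypes, and the groups overlapped over most of their range. The means were 919 ± 478 and 1058 ± 867 CPM (SD, n = 3), with a log2 fold change of -0.20 (SE 0.57, 95% interval -1.53 to 1.12, edgeR's adjusted p = 0.937). Without wt replicate 2 the log2 fold change was 0.72, and without Postn-/- replicate 3 it was 0.10. The interval allows a difference of more than 1 log2 unit in either direction, so a change of the size seen in Col6a2 was not detectable for Col1a1 at this spread.

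Col1a2, the gene of the α2 chain of type I, followed Col1a1 over the samples. Its levels were 929, 1232 and 559 CPM in Postn-/- and 871, 1964 and 729 CPM in wt. Its log2 fold change was -0.39 (SE 0.41, 95% interval -1.34 to 0.56, edgeR's adjusted p = 0.820), and it turned to 0.18 without wt replicate 2. The sign of both type I differences was thus turned by leaving out wt replicate 2.

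Col3a1 encodes the only chain of type III. It was measured at 183, 175 and 101 CPM in Postn-/- compared with 182, 100.3 and 128 CPM in wt. The highest values of the genotypes were nearly equal, as were the lowest. The log2 fold change was 0.16 (SE 0.27, 95% interval -0.48 to 0.79, edgeR's adjusted p = 0.891) and was -0.02 without wt replicate 2.

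The type V genes differed in both their level and the order of their samples. Col5a1, the gene of the α1 chain, stood at 105, 82.1 and 86.1 CPM in Postn-/- compared with 61.0, 101 and 55.6 CPM in wt. The 3 Postn-/- samples lay above wt replicates 1 and 3 but only replicate 1 of them lay above wt replicate 2. Its log2 fold change was 0.33 (SE 0.23, 95% interval -0.20 to 0.86, edgeR's adjusted p = 0.740). Over samples left out in turn it ran from 0.17 without wt replicate 3 to 0.65 without wt replicate 2. Col5a1 overlaps 2810430I11Rik and Gm13372 on the opposite strand, which together held few reads (269 and 4 counts against 11430).

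Col5a2, the gene of the α2 chain of type V, stood at 611, 966 and 675 CPM in Postn-/- compared with 971, 619 and 758 CPM in wt. The genotypes covered nearly the same range. Its log2 fold change of -0.06 (SE 0.22, 95% interval -0.58 to 0.45, edgeR's adjusted p = 0.953) was the nearest to 0 among the members. Its sign turned without Postn-/- replicate 1 (0.07), without Postn-/- replicate 3 (0.01) or without wt replicate 1 (0.12).

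Levels of different genes were compared as RPKM, the CPM per kilobase of exon, after TMM normalization. In wt, Col6a1 was the highest member, at 352 ± 98.4 RPKM (SD, n = 3). It was followed by Col1a1 at 161 ± 132, Col1a2 at 97.9 ± 55.7 and Col5a2 at 81.6 ± 18.4 RPKM. The ranges of each neighbouring pair among these 4 overlapped. Within samples, however, Col6a1 lay above Col1a1, and Col1a1 above Col1a2, in 3 of 3 wt samples, whereas Col1a2 lay above Col5a2 in only 1 of 3. Below a gap came Col6a2 at 39.5 ± 16.1 RPKM. The samples of the next genes, Col6a3 (18.4 ± 4.96 RPKM), Col3a1 (13.9 ± 4.24 RPKM), Col5a1 (8.55 ± 2.94 RPKM) and Col12a1 (5.33 ± 1.45 RPKM), overlapped from each to the next. Col14a1 was the lowest, at 0.272 ± 0.0731 RPKM, and stood clear of the others.

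In Postn-/- the order of the means was the same except that Col5a2 stood above Col1a2, which held in only 1 of 3 Postn-/- samples. Col6a1, at 523 ± 32.3 RPKM (SD, n = 3), no longer overlapped Col1a1 (140.0 ± 72.9 RPKM). Col6a2, at 73.0 ± 5.73 RPKM, lay within the range of Col5a2 (78.2 ± 19.8 RPKM) and Col1a2 (74.7 ± 27.8 RPKM). Col6a3 (26.2 ± 6.65 RPKM) stood clear of Col3a1 (15.6 ± 4.58 RPKM), below which came Col5a1 (10.7 ± 1.46 RPKM), Col12a1 (6.38 ± 3.81 RPKM) and Col14a1 (0.551 ± 0.0639 RPKM). The order depends on the length used: the files' exon length of Col1a2 joins the exons of all its isoforms, 12136 bp, whereas its longest coding transcript has 5348 bp. Per kilobase of the longest coding transcript, Col1a2 (mean 222 in wt) lay above Col1a1 (mean 178 in wt) in 5 of the 6 samples. Col6a1 was the highest member in 6 of 6 samples by either length.

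Summed per length, the 10 collagens reached 947, 1098 and 799.9 RPKM in Postn-/- and 586, 1104 and 648 RPKM in wt. The sums overlapped. Type VI made up 67.8%, 58.2% and 73.1% of the sum in Postn-/- and 50.5%, 48.4% and 61.8% in wt. Type I made up 21.7%, 29.1% and 14.9% in Postn-/- and 27.0%, 43.1% and 22.2% in wt. By exon length, type VI was the largest type in 6 of 6 samples. Per kilobase of the longest coding transcript, wt replicate 2 was the exception, with 42.0% type VI and 48.9% type I. Type I had its highest share in replicate 2 of both genotypes. The shares were not tested.

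Ratios between collagens of the same sample remove differences that all of them share, such as the number of reads. The 10 ratios of reads per kilobase were compared by an exact two-sided permutation test of 3 against 3 samples, which cannot give a p below 0.1, and p-values were adjusted over the 10. Col6a1/Col6a2 was 712%, 708% and 733% in Postn-/- and 1037%, 801% and 937% in wt. All Postn-/- ratios were lower and nearly equal (log2 2.84 ± 0.03, against 3.20 ± 0.19 in wt; SD, n = 3; difference -0.36, exact p = 0.1, adjusted p = 0.778). This was the only one of the 10 ratios whose samples did not overlap, and over samples left out in turn the difference ran from -0.46 to -0.27.

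The ratio of the type I chains, Col1a1/Col1a2, was 168%, 215% and 159% in Postn-/- and 120.3%, 194% and 139% in wt by exon length. Which chain is higher depends on that length. Per kilobase of the longest coding transcript, Col1a2 lay above Col1a1 in 5 of the 6 samples. The means were then 170 for Col1a2 and 155 for Col1a1 in Postn-/-, and 222 and 178 in wt. The Col1a1/Col1a2 ratio overlapped between genotypes (difference 0.27 on the log2 scale, exact p = 0.4, adjusted p = 0.778), and it was highest in replicate 2 of both. Its difference was 0.12 without wt replicate 1 and 0.47 without wt replicate 2. Col6a3/Col6a1 was 3.50%, 5.05% and 6.65% in Postn-/- and 5.27%, 5.17% and 5.29% in wt. The wt ratios were almost constant, and the Postn-/- ratios fell on both sides of them (difference -0.10, exact p = 0.7, adjusted p = 0.778). Col5a1/Col5a2 differed by 0.44 (exact p = 0.4), Col3a1/Col1a1 by 0.20 (exact p = 1.0), Col5a1/Col1a1 by 0.42 (exact p = 0.5), Col12a1/Col1a1 by 0.18 (exact p = 0.7) and Col14a1/Col12a1 by 0.91 (exact p = 0.2), each with overlapping samples. The Col5a1/Col5a2 difference was 0.17 without wt replicate 1 and 0.86 without wt replicate 2.

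Col1a1 was also set against Col2a1, the gene of type II collagen, as the usual ratio for dedifferentiation. It was 4.90%, 9.54% and 2.44% of Col2a1 in Postn-/- and 6.26%, 15.9% and 5.25% in wt. The ratio was highest in replicate 2 of both genotypes, and the groups overlapped (log2 -4.37 ± 0.99 against -3.64 ± 0.86, SD, n = 3; difference -0.73, exact p = 0.4, adjusted p = 0.778). Col6a1 was 20.8%, 23.5% and 16.1% of Col2a1 in Postn-/- and 18.7%, 23.0% and 21.7% in wt. Here the 6 samples lay close together (difference -0.08, exact p = 0.7, adjusted p = 0.778). Col2a1 itself was 15767, 13696 and 18081 CPM in Postn-/- and 8271, 11867 and 9567 CPM in wt, with no overlap (log2 fold change 0.68, edgeR's unadjusted p = 0.0125, adjusted p = 0.717).

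**Figure D3:**
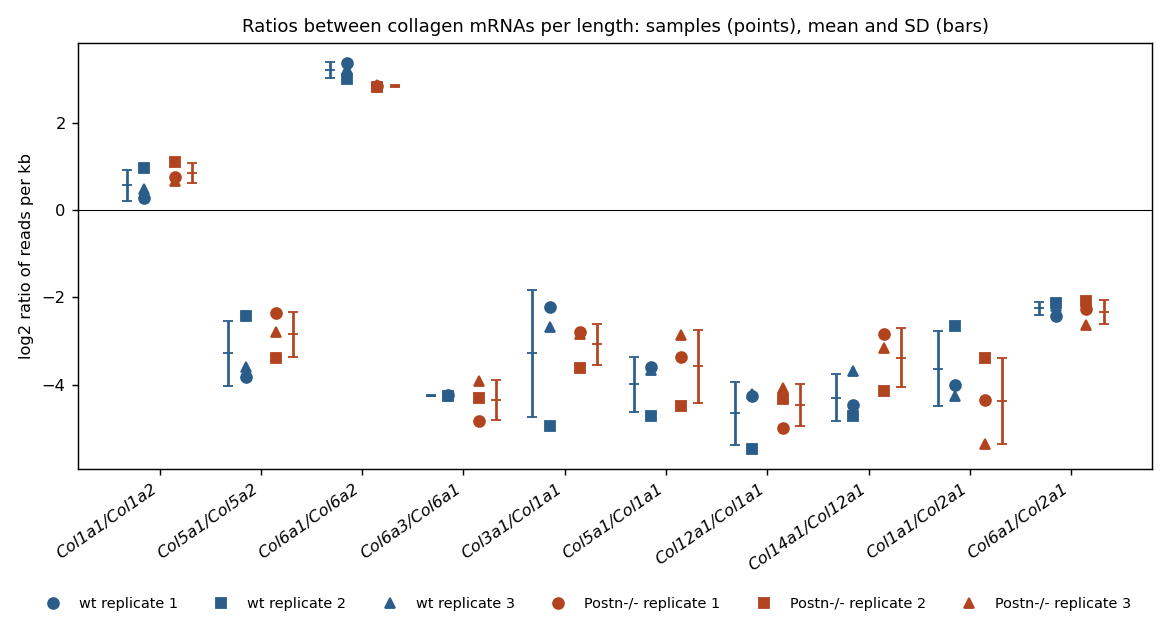
Log2 ratio of reads per kilobase for 10 pairs of collagen genes, with a point for each sample (blue wt, red Postn-/-, shape by replicate number) and the mean and SD of 3 samples beside the points. Col6a1/Col6a2 is the only pair whose genotypes do not overlap (2.84 ± 0.03 against 3.20 ± 0.19).

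Within a genotype, the members varied more than most genes. The pooled SD of log2 CPM within genotypes was 0.95 for Col1a1, exceeded by only 1.37% of the genes tested, 0.68 for Col1a2 (4.68%) and 0.62 for Col12a1 (6.54%). It was 0.45 for Col3a1, 0.43 for Col6a2, 0.39 for Col6a3, 0.36 for Col5a1, 0.34 for Col5a2, 0.30 for Col6a1 and 0.29 for Col14a1, where the median of all genes was 0.23. All 10 members thus lay above that median, the least variable ones being Col6a1 and Col14a1.

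Profiles over the 6 samples were compared by the root mean square distance between gene-centred log2 CPM values, as a description over samples that share their library. The closest pair was Col6a1 and Col6a2 (0.210), the neighbours on chromosome 10. Col5a1 and Col6a1 came next (0.231), then Col6a1 and Col6a3 (0.273), Col1a1 and Col1a2 (0.279) and Col6a1 and Col14a1 (0.308). The neighbours Col3a1 and Col5a2 were at 0.323. The farthest apart were Col1a1 and Col14a1 (0.927). Among the 10 members, each type I and type VI gene was thus nearest to a chain of its own type, and each type V gene to a collagen of another type. How many genes outside the set lie as near to a single member was not examined.

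**Figure D4:**
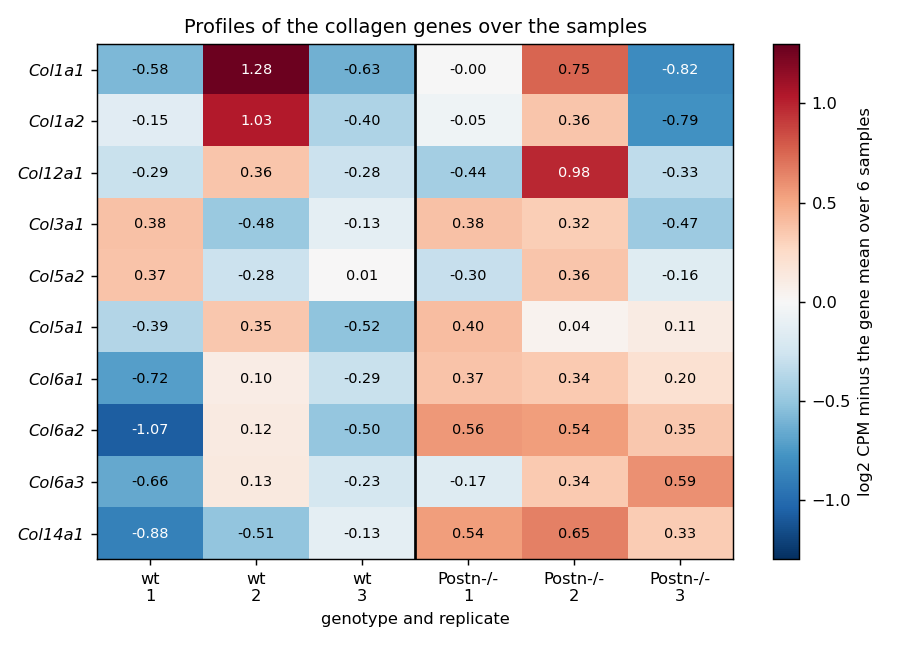
Gene-centred log2 CPM of each collagen gene (rows) in each sample (columns, genotype and replicate number); red is above and blue below the gene's mean over the 6 samples. Col1a1, Col1a2 and Col12a1 are highest in replicate 2 of both genotypes, and Col6a1, Col6a2, Col6a3 and Col14a1 are lowest in wt replicate 1.

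The 5 genes closest to the mean profile of the 10 members were Tmem132a (0.0665), Ppard (0.0712), Ap2s1 (0.0722), 4833427G06Rik (0.0723) and Elac2 (0.0739), against a median distance of 0.372 over all genes. None of these is a collagen. The mean profile averages members that differ among themselves, and closeness to it is a description over 6 samples.

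For Col1a1, Col1a2 and Col12a1 both replicate 2 samples lay above the other 4 samples. This held for 3 of 10 members (30%) and for 1400 of the 14533 genes (9.63%). Of the 9 osteoblast markers tested, 5 (55.6%) also had both replicate 2 samples above the other 4: Runx2 and Sp7, transcription factors of bone-forming cells, Ibsp and Spp1, which encode bone matrix proteins, and Alpl, which encodes alkaline phosphatase. Bglap, Bglap2, Dmp1 and Phex did not. Among the Postn-/- samples, replicate 2 was the lowest for Bglap (95.3 CPM) and Bglap2 (34.6 CPM). Among the wt samples, replicate 2 was the lowest for Dmp1 (0.226 CPM). Phex was highest in replicate 2 within each genotype, but its Postn-/- replicate 2 lay below wt replicate 3. The summed level of the 10 osteoblast markers was 3029, 11054 and 3766 CPM in Postn-/- and 3172, 8743 and 3228 CPM in wt, and none of the 10 was at 0 in all samples. Replicate 2 was thus the highest in both genotypes for type I collagen and for the osteoblast sum, and the other 4 samples lay between 3029 and 3766 CPM for the latter. Spp1 made up most of that sum, and the other 9 markers summed to 1347, 1947 and 1077 CPM in Postn-/- and 846, 3492 and 1547 CPM in wt, again with both replicate 2 samples the highest. Col1a1 is itself abundant in osteoblasts. In the chondrocyte list 0 of 17 and in the fibroblast list 0 of 12 genes tested had both replicate 2 samples above the other 4; their sums ran from 32141 to 51165 CPM and from 1671 to 2956 CPM. In the folding and secretion list 6 of 22 (27.3%) did: P4hb, P3h1, Crtap, Ppib, Colgalt1 and Creb3l1. In the collagenase list 3 of 7 (42.9%) did: Mmp2, Mmp13 and Timp1. The part of other cell types in the levels of type I collagen was not tested.

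**Figure D5:**
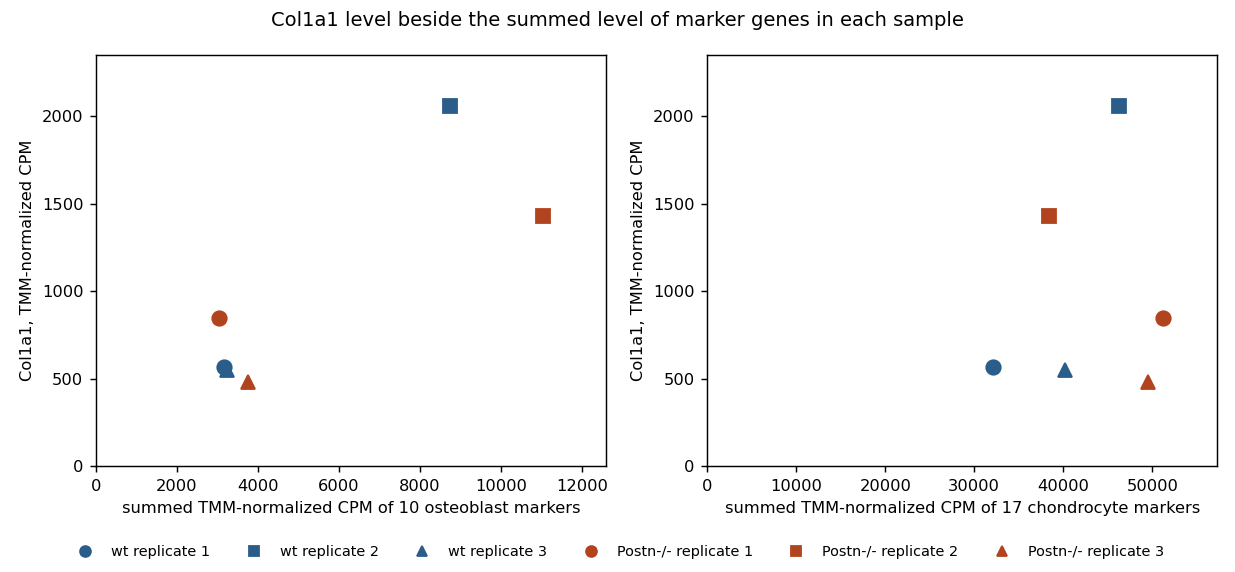
Col1a1 level in each sample against the summed TMM-normalized CPM of 10 osteoblast markers (left) and of 17 chondrocyte markers (right); symbols as in the plot of levels by sample. Replicate 2 of both genotypes is highest in Col1a1 in both panels and lies apart along the osteoblast axis, at 11054 (Postn-/-) and 8743 (wt) CPM, but within the range of the other samples along the chondrocyte axis.

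The other collagens give the setting of these values. Of the 44 mouse collagen genes listed, the 10 members among them, 40 were tested, 8 were higher in Postn-/- at an unadjusted p of at most 0.05 and 0 were lower, with 32 positive log2 fold changes and a median of 0.31. Of all genes tested, 3.95% were higher and 2.35% lower at that threshold, with a median of 0.0042. None of the collagens passed after adjustment. Of the 8 cartilage collagens, 3 were higher: Col2a1, Col9a3 (log2 fold change 1.00, unadjusted p = 0.0128), a chain of type IX, and Col11a2 (0.52, unadjusted p = 0.0406), a chain of type XI, with a list median of 0.53 in edgeR's test. Of 22 other collagens tested, Col4a1 (0.81, unadjusted p = 0.0136) and Col4a2 (0.74, unadjusted p = 0.0170), the main chains of basement membrane, were higher in edgeR's test, and the list median was 0.29. Calls were lost in edgeR's test for Col2a1 without wt replicate 3 (unadjusted p = 0.0522), and for Col4a1 without Postn-/- replicate 1 (unadjusted p = 0.0544). That of Col4a2 was lost without Postn-/- replicate 1 (unadjusted p = 0.0632), wt replicate 2 (unadjusted p = 0.0533) or wt replicate 3 (unadjusted p = 0.0667). Col11a2 was at 0.34 without wt replicate 1 (unadjusted p = 0.0995) and was also not called without Postn-/- replicate 1 (unadjusted p = 0.0914), Postn-/- replicate 3 (unadjusted p = 0.1001) or wt replicate 3 (unadjusted p = 0.118). Col6a6 was among the other collagens but was not tested because of its low counts.

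The lists of genes that make and hold collagen fibrils had medians nearer to 0. Of the 22 folding and secretion genes, 2 were higher at the unadjusted threshold in edgeR's test, where 3.95% of all genes were. They were Plod2 (log2 fold change 0.45, unadjusted p = 0.0175), a lysyl hydroxylase, and P3h3 (0.44, unadjusted p = 0.0372), of the prolyl 3-hydroxylase family. Plod2 was not called without wt replicate 1 (unadjusted p = 0.0508) or Postn-/- replicate 1 (unadjusted p = 0.0646). P3h3 was not called without Postn-/- replicate 1 (unadjusted p = 0.0634), Postn-/- replicate 3 (unadjusted p = 0.148), wt replicate 2 (unadjusted p = 0.0693) or wt replicate 3 (unadjusted p = 0.131). With the replicate number as a block, edgeR's unadjusted p for P3h3 was 0.0624. The median of that list was 0.05, and its most abundant gene, the collagen chaperone Serpinh1, stood at 15422, 11145 and 12219 CPM in Postn-/- compared with 14936, 15360 and 14841 CPM in wt. Of the 17 fibril-associated genes tested, only Postn reached the unadjusted threshold, and the list median was -0.13. Among 13 genes tested for cleavage and crosslinking none reached it (median 0.12).

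Among 11 receptors tested, Mrc2, which encodes an endocytic receptor for collagen, stood at 77.4, 85.8 and 68.1 CPM in Postn-/- compared with 52.3, 43.2 and 48.1 CPM in wt (log2 fold change 0.69, edgeR's unadjusted p = 0.000600, adjusted p = 0.717). Itga10, which encodes an integrin chain that binds type II collagen, stood at 16.0, 14.9 and 16.7 CPM in Postn-/- compared with 26.0, 27.4 and 24.8 CPM in wt (-0.72, unadjusted p = 0.000288, adjusted p = 0.597). The samples of both genes did not overlap between genotypes.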

How the data were processed

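RNA-seq of primary chondrocytes from 3 Postn-/- and 3 wt samples was used, grouped by the sample titles. The libraries were made with the SMARTer Ultra Low kit and read as single-end reads. The authors aligned them with STAR 2.0.4b to an Ensembl annotation and deposited counts of uniquely aligned, unambiguous reads per gene from featureCounts 1.4.5, which were used here. The deposited CPM (each count divided by the library's sum) and RPKM (that value per kilobase of exon) were recomputed from the counts as a check. The submitters' notes name mm9, but the coordinates in the files are those of GRCm38, and 40340 of the 41388 identifiers (97.5%) matched GENCODE M21.

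After removal of 355 rRNA genes, the 14533 genes above 1 CPM in 2 or more samples were tested. In R 4.3.3, Postn-/- was set against wt by the quasi-likelihood test of edgeR 4.0.16 on TMM-scaled counts, with Benjamini-Hochberg adjustment over all genes and a common biological coefficient of variation of 0.208. A standard error is the size of the log2 fold change divided by the square root of F. Levels are TMM-normalized CPM; profiles used log2 CPM with a prior count of 2. In simulated data (14216 genes) the test called 51 of 99 genes changed by 1 log2 unit, 92 of 98 changed by 2 and 5 unchanged ones. All pairs of samples differed by more than sampling noise (chi-square per degree of freedom at least 26.5).

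The 10 genes, the gene and marker lists and the tests were chosen with earlier results of these data known. Named genes were the 10 members, Postn, Col2a1, up to 3 genes with the smallest p and the most abundant gene of each list, and the 5 genes closest to the mean profile. Cnmd, genes of the replicate 2 pattern and untested genes were picked with their values in view. The study's methods used limma voomWithQualityWeights with surrogate variables (limma 3.58.1 and sva 3.50.0 here), which was an alternative, as were DESeq2 1.42.0, other scalings and filters, a block on the replicate number, a robust fit and the omission of each sample in turn.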

Additional observations from a re-analysis of the deposited data

How the results depend on the processing

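Over 16 alternative settings Col5a1, Col6a1, Col6a2, Col6a3 and Col14a1 kept their sign, and no member had an adjusted p of at most 0.05. Leaving out 1 sample at a time turned the sign of the other members, whose log2 fold changes then ran from -0.67 to 0.72 for Col1a1, from -0.68 to 0.18 for Col1a2, from -0.022 to 0.42 for Col3a1, from -0.29 to 0.12 for Col5a2 and from -0.35 to 0.50 for Col12a1. It also turned 4 of the 10 log2 ratios, which ran from -0.32 to 0.14 for Col6a3/Col6a1, from -0.63 to 0.73 for Col3a1/Col1a1, from -0.23 to 0.45 for Col12a1/Col1a1 and from -0.20 to 0.073 for Col6a1/Col2a1. The number of members higher at an unadjusted p of at most 0.05, 3 as reported, was 5 with limma voomWithQualityWeights and ran from 2 to 5 over samples left out. The number of all genes at that threshold, 916 as reported, was 1797 without a filter, 1882 with surrogate variables and from 425 to 1257 over samples left out, where the lowest count was without Postn-/- replicate 3. The number with an adjusted p of at most 0.05, 2 as reported, was 9 without a filter, 0 with over 1 CPM required in all 6 samples, 1 with upper quartile scaling, 1 with library totals, 1 with voomWithQualityWeights, 11 with DESeq2's Wald test and from 1 to 2 over samples left out. DESeq2 gave Itga10 an adjusted p of 0.00195 and Mrc2 one of 0.0328, against up to 0.983 for both over the alternatives. The cause of these shifts was not tested. The mean summed level in Postn-/- was 1205 per kilobase of the longest coding transcript, an alternative chosen after seeing the data, against 948 RPKM with exon length.

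The labels do not state that the replicate numbers pair the samples. In their deviations from the group means, same-numbered samples correlated by 0.0824, 0.155 and 0.143. Each of these lay above the other pairs, which ran from -0.130 to 0.0143. Whether same-numbered samples share a batch was not tested. With the replicate number as a block, 1 gene had an adjusted p of at most 0.05 and 1188 (8.17%) an unadjusted one. At the latter threshold 4 members were higher in Postn-/-, where 4.97% of all genes were higher. The member added was Col6a3 (log2 fold change 0.51, unadjusted p = 0.0122 in edgeR's test). Under the block the calls of P3h3 (unadjusted p = 0.0624) and Actg2 (unadjusted p = 0.0602) were lost in that test. No ratio went below p = 0.25 within replicate numbers, the smallest that the exact sign-flip test allows. With 3 samples a genotype, intervals are wide, and Col14a1 rests on 37 to 105 counts a sample; the counts carry no molecular identifiers, so floors cover counting error only.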

Other observations

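Markers of cells other than chondrocytes were low or overlapped between genotypes. The summed level of 6 endothelial markers was 10.1, 10.2 and 13.7 CPM in Postn-/- and 7.27, 8.23 and 11.9 CPM in wt. The sum of 8 blood and macrophage markers was 49.7, 28.7 and 39.4 CPM in Postn-/- and 28.8, 19.0 and 33.2 CPM in wt. Osteoclast markers summed to 459, 348 and 425 CPM in Postn-/- and 417, 316 and 395 CPM in wt, and both of these lists were lowest in replicate 2 of each genotype. Ctsk alone made up most of the osteoclast sum, at 435, 321 and 411 CPM in Postn-/- and 390, 294 and 373 CPM in wt. Genes of the synovial lining and superficial zone (Prg4, Cilp, Clu and Htra1) summed to 1459, 577 and 739 CPM in Postn-/- and 806, 386 and 562 CPM in wt, and none of the 4 reached an unadjusted p of 0.05 in edgeR's test.

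Of the 7 myofibroblast and smooth muscle markers, Rgs5 (log2 fold change 1.24, unadjusted p = 0.0347) and Actg2 (0.68, unadjusted p = 0.0484) were higher in Postn-/- at the unadjusted threshold in edgeR's test, where 3.95% of all genes were. Both were at under 4 CPM in every sample. Rgs5 was not called without Postn-/- replicate 1 (unadjusted p = 0.128), Postn-/- replicate 3 (unadjusted p = 0.0872), wt replicate 1 (unadjusted p = 0.0916) or wt replicate 2 (unadjusted p = 0.102). Actg2 was at 0.42 without wt replicate 1 (unadjusted p = 0.117) and was not called without Postn-/- replicate 1 (unadjusted p = 0.113), Postn-/- replicate 2 (unadjusted p = 0.0770) or Postn-/- replicate 3 (unadjusted p = 0.0863). With the replicate number as a block, edgeR's unadjusted p for Actg2 was 0.0602. Acta2, the most abundant of that list, was 52.7, 87.6 and 111 CPM in Postn-/- and 67.6, 73.5 and 154 CPM in wt. Of the 17 chondrocyte markers, 4 were higher at that threshold in edgeR's test, where 3.95% of all genes were. Of these, Col2a1, Col9a3 and Col11a2 are the cartilage collagens already counted above, the last not called without wt replicate 1 (0.34, unadjusted p = 0.0995). The other was Chad (0.68, unadjusted p = 0.00908), which encodes a cartilage matrix protein. None of the 12 fibroblast, 9 osteoblast, 4 endothelial, 4 blood and macrophage and 3 osteoclast genes tested reached the unadjusted threshold. The median log2 fold change was 0.18 for the chondrocyte (10 of 17 positive), 0.01 for the osteoblast (5 of 9) and 0.14 for the osteoclast list (2 of 3). In 3 of the 17 chondrocyte markers all Postn-/- samples lay above all wt samples (7.03% of all genes). In 1, Cnmd, all lay below (6.57% of all genes), with a log2 fold change of -0.29 (edgeR's unadjusted p = 0.132). Of the 7 collagenase, gelatinase and inhibitor genes tested none reached the unadjusted threshold either. The most abundant, Timp3, an inhibitor of metalloproteinases, was 15569, 11555 and 11466 CPM in Postn-/- and 18990, 10102 and 13502 CPM in wt.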
